A study of Danio rerio with 4 samples.

Results

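The genes described here encode the enzymes that write and erase marks on histones and DNA and the ATP-driven remodelling complexes that move nucleosomes, whose transcripts were counted by RNA sequencing in zebrafish (Danio rerio) fins, regenerating or uninjured. They were chosen by name alone: a row of the count tables was taken where its Ensembl gene symbol, in any case, began with kdm, kmt, hdac, dnmt, ezh, sirt, prmt, setd or smarc, or with tet, chd or kat followed by a digit. This gave 107 of 32434 genes, of which 20769 had a symbol, and 105 of the 107 had enough reads to be tested. The fish were wild type of strain EK in both groups. Regenerating fins had been cut to 50% of their length and were collected 4 days after amputation, and the other fins were uninjured. Each group had 2 pools of 10 fins, and the labels do not say which fin was taken or whether separate fish gave the pools of a group. The p-values therefore reflect only how these pools differ, which may be technical. Symbols are printed as the table gives them, some in capitals. Where 2 gene IDs share a printed symbol, as 14 members do for 7 symbols, the Ensembl ID stands beside each value.

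DNA in the nucleus is wound around histone proteins, and the tails of these histones carry methyl and acetyl groups that affect how readily a gene is transcribed. Methylation of lysine residues H3K4 and H3K36 accompanies active genes, while methylation of H3K27 by Polycomb repressive complexes and of H3K9 accompanies silent ones; acetylation by lysine acetyltransferases is reversed by histone deacetylases and sirtuins. DNA methyltransferases methylate cytosine, Tet dioxygenases oxidise that mark, and SWI/SNF, ISWI and Chd remodellers use ATP to slide or evict nucleosomes. A fin that is regrowing holds dividing mesenchymal cells, the blastema, beneath a wound epidermis, and H3K27 demethylation, DNA methylation and histone deacetylation have each been studied in this process in zebrafish.

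The 4 libraries held 34290386 to 48247042 counts. Levels are given as CPM, in which counts are brought to equal library size with trimmed mean of M values (TMM) factors, and a call means an adjusted p under 0.05 in edgeR's quasi-likelihood test over all genes tested. Markers of several cell types moved between the groups. Of 17 cycling-cell genes 16 rose, with summed levels of 1715 and 1527 CPM in regenerating and 237 and 292 CPM in uninjured pools. All 10 fibroblast and blastema markers rose, 7 of 8 osteoblast markers rose and 1 fell, and 8 of 9 endothelial markers rose. Of 10 epidermal markers 9 fell, with summed levels of 29262 and 25318 CPM in regenerating and 81622 and 67633 CPM in uninjured pools, and all 7 Schwann cell markers fell. Of 13 macrophage markers 7 rose and 5 fell. Their summed levels were 748 and 704 CPM in regenerating and 2223 and 1583 CPM in uninjured pools. Of these sums cd74a held 486 and 518 CPM in regenerating and 2041 and 1436 CPM in uninjured pools. Of 4 neutrophil markers 1 rose and 3 fell. None of these markers was at 0 in all libraries. The part of these shifts in the results below was not tested, and in such bulk samples fewer cells of a type and less RNA per cell cannot be told apart.

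The test called 74 of the 105 members (70.5%), where it called 59.6% of all 25594 genes. Of the members 45 rose and 29 fell, and 31 did not pass; over all genes 29.5% rose and 30.1% fell. No family was tested against these shares, and counts over a few genes are given as a description. The members' median log2 fold change was 0.18, beside -0.02 over all genes. Members were mostly well expressed, with a median of 30.1 CPM against 8.05 CPM for all tested genes, and the share of genes called depends on level. Among genes with a mean of at least 10 CPM, 37 of 87 members (42.5%) rose and 24 (27.6%) fell, where 36.6% and 32.6% of all 11590 such genes did. A change of 2-fold or more was called upward for 23 members and downward for 11, where the background was 15.0% and 16.1%, and one of 4-fold or more for 5 and 1, against 4.79% and 3.41%. For 54 members the regenerating pools were both above the uninjured ones and for 38 both below, where 40.3% and 41.0% of all tested genes did so. The remaining 13 members overlapped. With total-count scaling the members' counts were 52 higher and 22 lower, and those of all genes 8939 higher and 5524 lower in place of 7551 and 7693, a scaling that moved the median of all genes by 0.21 on the log2 scale.

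**Figure D1:**
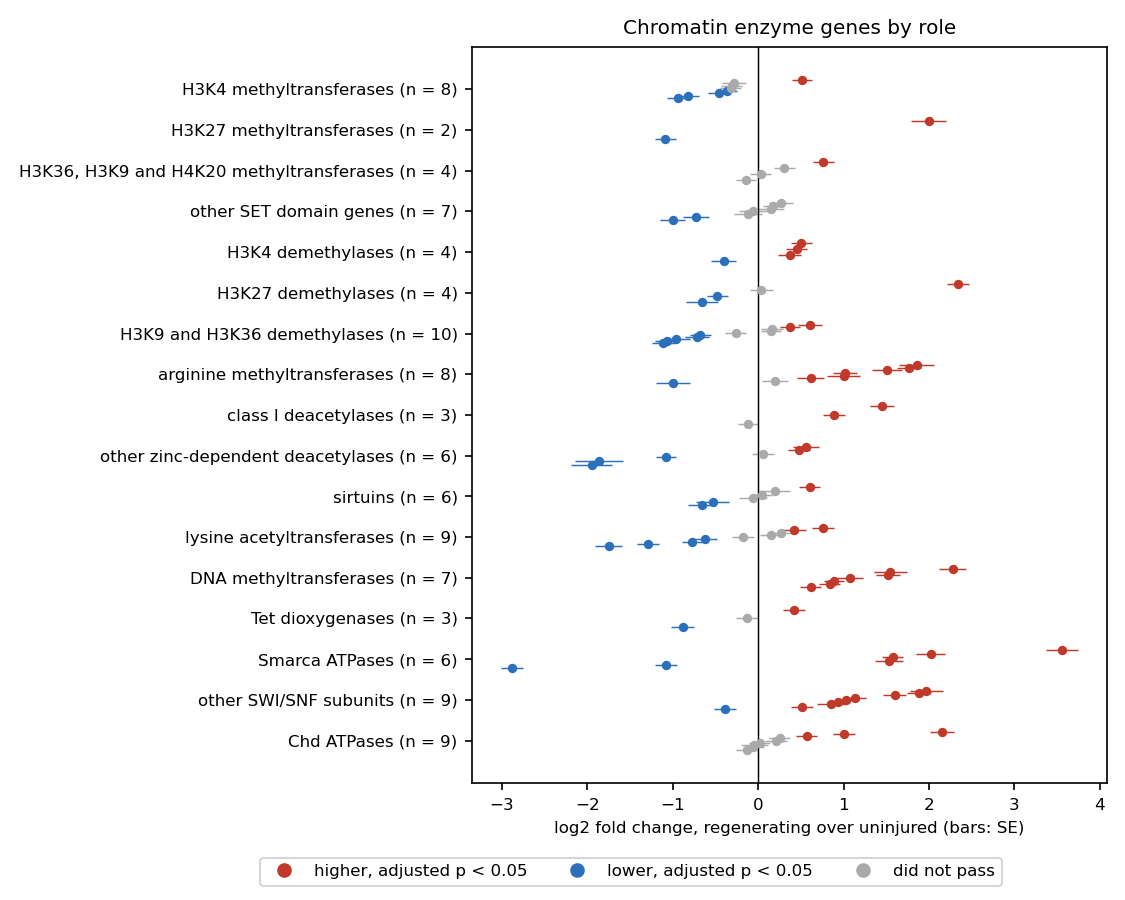
Each point is 1 of the 105 tested genes, placed by its log2 fold change (regenerating over uninjured, x axis, bars for the SE) and grouped by the mark or complex it acts in (y axis); red points rose, blue points fell and grey points did not pass. The DNA methyltransferases and the SWI/SNF subunits lie mostly to the right of 0, the H3K4 methyltransferases mostly to the left.

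All 7 DNA methyltransferase genes rose, with a median log2 fold change of 1.08, where 29.5% of all genes rose. DNMT1 copies methylation onto the new strand after replication. It stood at 78.2 and 63.6 CPM in regenerating and 23.7 and 25.7 CPM in uninjured pools, and every regenerating pool lay above every uninjured one; the log2 fold change was 1.52 ± 0.14 (SE) with an adjusted p of 5.61e-05. The DNMT3 genes encode the de novo methyltransferases, and among them dnmt3ba changed most, at 50.3 and 46.2 CPM in regenerating and 8.68 and 11.2 CPM in uninjured pools (2.28 ± 0.16, adjusted p = 1.38e-05). The other 5 rose less. dnmt3bb.2, at 3.98 and 3.56 CPM in regenerating and 1.26 and 1.32 CPM in uninjured pools, had the lowest level of the family and rose by 1.55 ± 0.19, and dnmt3bb.3 rose by 1.07 ± 0.16. Both DNMT3A genes rose, ENSDARG00000015566 by 0.89 ± 0.12 and ENSDARG00000005394 by 0.61 ± 0.12, and DNMT3B rose by 0.83 ± 0.13. The groups did not overlap for any of the 7 genes, where 40.3% of all tested genes had both regenerating pools above. Their summed level was 272 and 253 CPM in regenerating pools and 113 and 120 CPM in uninjured pools. Most cycling-cell, fibroblast, osteoblast and endothelial markers rose in the same libraries, and a link to these genes was not tested.

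The 3 Tet genes, whose products oxidise methylcytosine, went different ways. TET1 stood at 35.1 and 39.3 CPM in regenerating and 63.6 and 73.7 CPM in uninjured pools, so that both regenerating pools were lower, and fell by 0.88 ± 0.13 on the log2 scale (adjusted p = 6.27e-04). tet3 was higher in the regenerating pools, at 33.7 and 29.2 CPM in regenerating and 23.1 and 24.0 CPM in uninjured pools, and rose by 0.42 ± 0.13, a call that was lost without regenerating replicate 1 (adjusted p = 0.174). TET2 overlapped between the groups, at 39.8 and 37.3 CPM in regenerating and 39.0 and 45.4 CPM in uninjured pools, with a log2 fold change of -0.13 ± 0.13 that did not pass (adjusted p = 0.411) and was 0.070 with total-count scaling and 0.016 without uninjured replicate 2.

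The 2 H3K27 methyltransferases of Polycomb repressive complex 2 moved in opposite directions. EZH2 had levels of 34.4 and 34.3 CPM in regenerating and 6.64 and 10.6 CPM in uninjured pools and rose by 2.0 ± 0.21 (adjusted p = 8.86e-05). Its uninjured pools differed from each other by more than its regenerating pools did. ezh1 stood at 37.9 and 35.5 CPM in regenerating and 77.8 and 78.1 CPM in uninjured pools and fell by 1.09 ± 0.12 (adjusted p = 1.15e-04). In neither gene did the groups overlap, where 40.3% of all tested genes had both regenerating pools above and 41.0% both below. The ratio of EZH2 to ezh1 counts within a library does not depend on scaling between libraries. It was 0.907 and 0.968 in regenerating pools and 0.0853 and 0.136 in uninjured pools; since the transcripts' lengths were not used, the ratio compares libraries and does not rank the genes. Beside them, where 29.5% of all genes rose and 30.1% fell, 18 of 29 tested Polycomb partner genes rose and 9 fell (median 0.61). Among these the histone-binding subunit RBBP4, which other complexes share, rose by 1.99 ± 0.15 and the H3K27 methylation reader gene cbx7a fell by 2.71 ± 0.20.

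The H3K27 demethylase gene kdm6bb had the largest change of any Kdm gene. Its levels were 202 and 195 CPM in regenerating and 38.2 and 40.0 CPM in uninjured pools, and the log2 fold change was 2.34 ± 0.13, or 5.07-fold (adjusted p = 5.34e-06). KDM6B, a second gene of this Jmjd3-type demethylase, was at 145 and 143 CPM in regenerating and 151 and 129.8 CPM in uninjured pools, with groups that overlapped. Its log2 fold change of 0.04 ± 0.14 did not pass (adjusted p = 0.827), and it was -0.071 under the filter of 10 CPM in 2 libraries and -0.037 without uninjured replicate 2. The ratio of kdm6bb to KDM6B counts was 1.39 and 1.36 in the regenerating and 0.253 and 0.308 in the uninjured libraries. The related KDM6A, the Utx-type demethylase, was at 32.1 and 31.1 CPM in regenerating and 46.7 and 41.5 CPM in uninjured pools and fell by 0.48 ± 0.12, and kdm6al, at 37.6 and 38.9 CPM in regenerating and 72.3 and 48.3 CPM in uninjured pools, fell by 0.66 ± 0.18. Both calls were sensitive. That of KDM6A was lost without regenerating replicate 1 or regenerating replicate 2 (adjusted p = 0.0551 and 0.0706) and with total-count scaling (adjusted p = 0.147), and that of kdm6al was lost without regenerating replicate 1 or uninjured replicate 1 (adjusted p = 0.0609 and 0.0540).

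**Figure D2:**
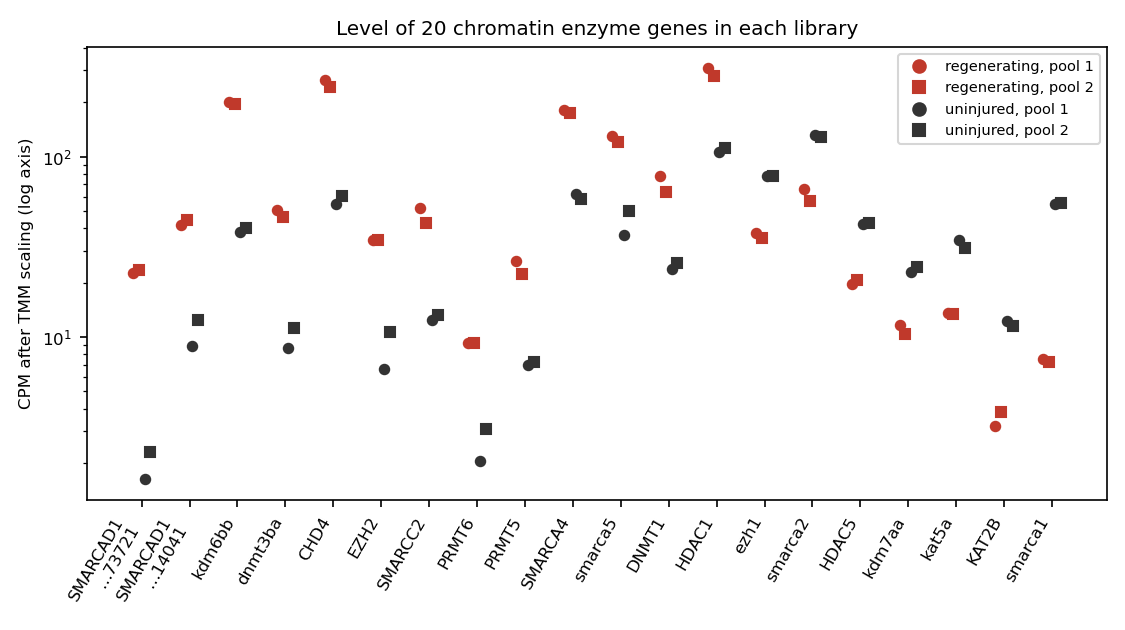
Each symbol is 1 library's level in CPM after TMM scaling (y axis, log scale) for 20 genes (x axis), red for regenerating and black for uninjured pools, circles for pool 1 and squares for pool 2; the last digits of the Ensembl ID mark the SMARCAD1 genes. The 20 genes were picked from the called members and placed by direction, so their separation follows from the choice. The first 13 genes have both red symbols above both black ones, from SMARCAD1 to HDAC1, and the last 7 have them below, from ezh1 to smarca1. Of all 105 tested members 13 overlapped between the groups, where 4780 of all 25594 tested genes did.

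Of 8 tested H3K4 methyltransferase genes 1 rose, 4 fell and 3 did not pass, where 29.5% of all genes rose and 30.1% fell, and the median log2 fold change was -0.35. These are the catalytic genes of the MLL and Set1 complexes. kmt2a, at 90.1 and 86.3 CPM in regenerating and 175 and 164 CPM in uninjured pools, had the largest decrease among them, -0.94 ± 0.13 (adjusted p = 3.41e-04). KMT2D fell by 0.46 ± 0.13 and kmt2ba by 0.37 ± 0.12, while kmt2bb had a log2 fold change of -0.31 ± 0.12 that did not pass (adjusted p = 0.0578) but passed under the filter of 10 CPM in 2 libraries (adjusted p = 0.0138). The call of KMT2D was lost without regenerating replicate 1 or regenerating replicate 2 (adjusted p = 0.0545 and 0.125) and with total-count scaling (adjusted p = 0.179), and that of kmt2ba was lost without regenerating replicate 1, regenerating replicate 2 or uninjured replicate 1 (adjusted p = 0.0821, 0.207 and 0.0591), with DESeq2's Wald test (adjusted p = 0.0505) and with total-count scaling (adjusted p = 0.384). The KMT2C genes diverged. ENSDARG00000075560 was at 78.5 and 76.1 CPM in regenerating and 51.7 and 56.5 CPM in uninjured pools and rose by 0.51 ± 0.12, whereas ENSDARG00000079312 was at 26.3 and 29.5 CPM in regenerating and 50.3 and 48.0 CPM in uninjured pools and fell by 0.82 ± 0.12. Of the Set1-type genes, setd1a and SETD1B had log2 fold changes of -0.28 ± 0.14 and -0.32 ± 0.12 that did not pass (adjusted p = 0.108 and 0.0502). The first passed under the filter of 10 CPM in 2 libraries (adjusted p = 0.0297) and without uninjured replicate 2 (adjusted p = 0.0458). The second passed under the filter of 10 CPM in 2 libraries (adjusted p = 0.0124), with the legacy estimation (adjusted p = 0.0438) and without uninjured replicate 2 (adjusted p = 0.0484). setd1bb, with 0 to 2 counts per library, was not tested. KMT2E, an MLL relative whose own methyltransferase activity is doubtful, fell by 0.73 ± 0.15.

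The H3K4 demethylases had small changes. KDM1A, the Lsd1 demethylase of the CoREST complex, was at 115 and 109.7 CPM in regenerating and 86.3 and 78.3 CPM in uninjured pools and rose by 0.45 ± 0.13. kdm5c rose by 0.50 ± 0.12 from 86.3 and 79.8 CPM in uninjured to 121 and 114 CPM in regenerating pools. The KDM5B genes split, ENSDARG00000003098 rising by 0.37 ± 0.13 and ENSDARG00000057093 falling by 0.40 ± 0.15, with adjusted p of 0.0403 and 0.0423 close to the threshold. All 4 calls were lost in at least 1 fit that left out a library, and such a fit has a lone pool in 1 group. Over these fits the log2 fold changes were 0.41 to 0.53 for KDM1A and 0.47 to 0.57 for kdm5c. They were 0.30 to 0.48 for ENSDARG00000003098 and -0.55 to -0.26 for ENSDARG00000057093. The call of KDM1A was lost without regenerating replicate 1 or regenerating replicate 2 (adjusted p = 0.0934 and 0.0536), and that of kdm5c was lost without regenerating replicate 1 (adjusted p = 0.0655). For the KDM5B genes, the call of ENSDARG00000003098 was lost without regenerating replicate 1, regenerating replicate 2 or uninjured replicate 2 (adjusted p = 0.190, 0.107 and 0.0848) and under the filter of 10 CPM in 2 libraries (adjusted p = 0.0968), and that of ENSDARG00000057093 was lost without regenerating replicate 2 or uninjured replicate 1 (adjusted p = 0.300 and 0.128), with DESeq2's Wald test (adjusted p = 0.0578), with no filter (adjusted p = 0.0636) and with total-count scaling (adjusted p = 0.307).

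Of 10 demethylase genes for H3K9 and H3K36 2 rose, 5 fell and 3 did not pass (median -0.47), beside 29.5% and 30.1% of all genes that rose and fell. All 3 genes of the Kdm4 group, which act on both residues, fell. kdm4aa went furthest, at 28.0 and 23.5 CPM in regenerating and 58.1 and 49.9 CPM in uninjured pools (-1.07 ± 0.14, adjusted p = 3.16e-04), and kdm4ab and kdm4c fell by 0.72 ± 0.14 and 0.68 ± 0.12. kdm7aa, at 11.7 and 10.3 CPM in regenerating and 23.0 and 24.5 CPM in uninjured pools, fell by 1.11 ± 0.13, while KDM7A had a log2 fold change of -0.26 ± 0.12 that did not pass (adjusted p = 0.0963) but passed under the filter of 10 CPM in 2 libraries (adjusted p = 0.0245). The Kdm2 genes encode H3K36 demethylases with a zinc finger that binds unmethylated CpG. One KDM2B gene (ENSDARG00000046010) fell by 0.96 ± 0.16, from uninjured levels of 23.9 and 18.3 CPM to 10.7 and 10.9 CPM. The other (ENSDARG00000036593) rose by 0.61 ± 0.14, from 15.6 and 12.6 CPM to 20.9 and 22.1 CPM. KDM2A rose by 0.37 ± 0.11, a call that was lost without regenerating replicate 1 or regenerating replicate 2 (adjusted p = 0.119 and 0.0931) and under the filter of 10 CPM in 2 libraries (adjusted p = 0.0572), and kdm2aa and the H3K9 demethylase gene kdm3b had log2 fold changes of 0.16 ± 0.13 and 0.15 ± 0.12 that did not pass; kdm2aa passed with total-count scaling (adjusted p = 0.0475).

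On the writing side of these marks, setdb1a, an H3K9 methyltransferase gene, stood at 32.1 and 29.8 CPM in regenerating and 18.7 and 17.8 CPM in uninjured pools and rose by 0.76 ± 0.12 (adjusted p = 8.26e-04). setd2, whose enzyme adds the third methyl group to H3K36, overlapped between the groups at 70.4 and 66.3 CPM in regenerating and 62.9 and 71.0 CPM in uninjured pools. Its log2 fold change of 0.03 ± 0.13 did not pass (adjusted p = 0.849) and was of the other sign in 3 of the alternatives. The H4K20 methyltransferase genes KMT5B and kmt5c had values of -0.14 ± 0.12 and 0.31 ± 0.12 that did not pass either, and that of KMT5B was 0.069 with total-count scaling. kmt5c passed with total-count scaling (adjusted p = 0.0152). Among the remaining SET domain genes SETD7, a lysine methyltransferase gene with histone and other substrates, fell by 1.0 ± 0.15, at 8.23 and 10.1 CPM in regenerating and 18.4 and 18.4 CPM in uninjured pools. SETD3, which methylates actin, and SETD4, SETD5, SETD6 and SETD9 did not pass, with log2 fold changes from -0.12 to 0.26; those of SETD6 and SETD9 were negative, and positive with total-count scaling. SETD3 passed with total-count scaling (adjusted p = 0.0440) and without uninjured replicate 2 (adjusted p = 0.0277), and SETD5 passed with total-count scaling (adjusted p = 0.0475). Outside the name rule, 2 genes carry the symbol SUV39H1, for an H3K9 methyltransferase of heterochromatin. ENSDARG00000055753 rose by 2.49 ± 0.16, while ENSDARG00000026799, with 16 to 30 counts per library, overlapped between the groups and did not pass (0.02 ± 0.35, adjusted p = 0.969).

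Of 8 tested arginine methyltransferase genes 6 rose, 1 fell and 1 did not pass (median log2 fold change 1.01). Over all genes 29.5% rose and 30.1% fell. PRMT1, the main enzyme of asymmetric arginine dimethylation, was at 149.8 and 143 CPM in regenerating and 42.7 and 60.6 CPM in uninjured pools and rose by 1.5 ± 0.18 (adjusted p = 1.62e-04). PRMT5, the main enzyme of the symmetric form, went from 6.95 and 7.31 CPM in uninjured to 26.2 and 22.3 CPM in regenerating pools (1.77 ± 0.14, adjusted p = 2.64e-05). PRMT6, which methylates arginine 2 of histone H3, had the largest change of the family, at 9.29 and 9.20 CPM in regenerating and 2.05 and 3.08 CPM in uninjured pools (1.85 ± 0.21). PRMT1, PRMT5 and PRMT6 did not overlap between the groups, where 40.3% of all tested genes had both regenerating pools above. PRMT7 and PRMT9 rose by 1.02 ± 0.14 and 1.0 ± 0.19, and PRMT8 rose by 0.61 ± 0.16, a call that was lost without regenerating replicate 1 (adjusted p = 0.0943). PRMT2 fell by 1.0 ± 0.20, at 2.40 and 2.04 CPM in regenerating and 3.86 and 5.02 CPM in uninjured pools. PRMT3, whose known substrate is a ribosomal protein, overlapped between the groups and did not pass (0.19 ± 0.15). prmt8b, with 6 to 9 counts per library, was not tested.

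Among the zinc-dependent deacetylases the class I genes HDAC1 and hdac3 rose. HDAC1, the catalytic subunit of the NuRD, Sin3 and CoREST complexes, stood at 311 and 279.7 CPM in regenerating and 106 and 111 CPM in uninjured pools and rose by 1.45 ± 0.14 (adjusted p = 6.44e-05). hdac3, of the NCoR complex, was at 27.3 and 28.3 CPM in regenerating and 14.1 and 15.9 CPM in uninjured pools and rose by 0.89 ± 0.13. HDAC8 did not pass (-0.12 ± 0.12, adjusted p = 0.407), and its value was positive with total-count scaling. The class IIa genes HDAC5 and hdac7b fell. HDAC5 was at 19.8 and 20.6 CPM in regenerating and 42.4 and 42.9 CPM in uninjured pools (-1.08 ± 0.12), and hdac7b at 1.12 and 1.48 CPM in regenerating and 5.90 and 3.55 CPM in uninjured pools (-1.86 ± 0.28), the latter with uninjured pools well apart. hdac9b, of the same class, overlapped between the groups and did not pass (0.06 ± 0.13, adjusted p = 0.718). HDAC11 fell by 1.95 ± 0.24, from 70 and 60 counts to 22 and 26. HDAC6, a deacetylase of tubulin, and HDAC10, a polyamine deacetylase, rose by 0.56 ± 0.15 and 0.48 ± 0.13. The call of HDAC6 was lost without regenerating replicate 1 (adjusted p = 0.100), and that of HDAC10 was lost without regenerating replicate 1 (adjusted p = 0.0809). Of 28 tested deacetylase partner genes 9 rose, 3 fell and 16 did not pass (median 0.26). Over all genes 29.5% rose and 30.1% fell. RCOR2, a CoREST subunit in this list, rose by 3.62 ± 0.34 from an uninjured mean of 0.967 CPM (4.51 without uninjured replicate 2).

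The sirtuins, NAD-dependent deacylases, had log2 fold changes from -0.66 to 0.60. Of the 6 genes 1 rose and 2 fell, beside 29.5% and 30.1% of all genes that rose and fell. The summed level of the 6 was 101 and 104 CPM in regenerating and 104 and 101 CPM in uninjured pools. SIRT1, a nuclear deacetylase, was at 23.3 and 22.3 CPM in regenerating and 15.9 and 14.2 CPM in uninjured pools and rose by 0.60 ± 0.13. The mitochondrial SIRT3, at 5.32 and 5.59 CPM in regenerating and 7.79 and 9.48 CPM in uninjured pools, fell by 0.66 ± 0.16, a call that was lost with total-count scaling (adjusted p = 0.0804). SIRT5, also mitochondrial, fell by 0.53 ± 0.20, with uninjured levels of 26.6 and 17.2 CPM that lay apart, a call that was lost without regenerating replicate 1, regenerating replicate 2 or uninjured replicate 1 (adjusted p = 0.156, 0.0831 and 0.316), with DESeq2's Wald test (adjusted p = 0.0511), with no filter (adjusted p = 0.0701) and with total-count scaling (adjusted p = 0.182). SIRT2, SIRT4 and SIRT7 overlapped between the groups, with log2 fold changes of 0.04 ± 0.12, -0.06 ± 0.16 and 0.19 ± 0.18. That of SIRT4 was positive with total-count scaling, and SIRT7 passed without uninjured replicate 2 (adjusted p = 0.0291).

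Among 9 lysine acetyltransferase genes 2 rose, 4 fell and 3 did not pass (median -0.18), beside 29.5% and 30.1% of all genes that rose and fell. KAT2B, the Pcaf acetyltransferase of H3K9, had the largest decrease, at 3.22 and 3.86 CPM in regenerating and 12.3 and 11.5 CPM in uninjured pools (-1.75 ± 0.16, adjusted p = 4.73e-05). The Tip60 genes kat5a and kat5b differed in direction. kat5a was at 13.5 and 13.4 CPM in regenerating and 34.6 and 31.1 CPM in uninjured pools and fell by 1.29 ± 0.12; kat5b was at 10.5 and 11.0 CPM in regenerating and 7.84 and 8.22 CPM in uninjured pools and rose by 0.42 ± 0.13, a call that was lost without regenerating replicate 1, regenerating replicate 2 or uninjured replicate 1 (adjusted p = 0.0853, 0.135 and 0.0630), under the filter of 10 CPM in 2 libraries (adjusted p = 0.0614) and with DESeq2's Wald test (adjusted p = 0.0507). Of the Kat7 genes, which encode an H3K14 and H4 acetyltransferase of replication origins, kat7a fell by 0.77 ± 0.12 and KAT7 did not pass (0.27 ± 0.14) but passed with total-count scaling (adjusted p = 0.0320). KAT6B fell by 0.62 ± 0.14, a call that was lost without regenerating replicate 2 (adjusted p = 0.0586). KAT14 rose by 0.76 ± 0.13, and KAT6A and KAT8 did not pass (-0.18 ± 0.13 and 0.15 ± 0.12), with KAT6A positive under total-count scaling. Of 31 tested further acetyltransferases and bromodomain readers 5 rose, 6 fell and 20 did not pass (median -0.10). HAT1, which acetylates newly made histone H4, rose by 1.02 ± 0.12 and ing5b by 1.84 ± 0.18. One BRD8 gene (ENSDARG00000055999), with a mean of 4.88 CPM in regenerating and 9.09 CPM in uninjured pools, fell by 0.90 ± 0.14. The other (ENSDARG00000025071), at 39.9 and 40.0 CPM, overlapped between the groups and did not pass (-0.0060 ± 0.12, adjusted p = 0.968). MSL1 fell by 0.89 ± 0.14.

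The remodelling ATPases held the largest changes of all members in both directions. All 15 Smarc genes passed, 12 higher and 3 lower, with a median log2 fold change of 1.13. Over all genes 59.6% passed (29.5% higher and 30.1% lower), and 69.2% of those with a mean of at least 10 CPM. SMARCAD1 encodes a remodeller that acts at replication forks and in heterochromatin, and both of its genes rose. ENSDARG00000073721 was at 22.7 and 23.6 CPM in regenerating and 1.63 and 2.32 CPM in uninjured pools, a change of 3.56 ± 0.19 or 11.8-fold (adjusted p = 4.36e-06). ENSDARG00000014041 was at 41.8 and 44.6 CPM in regenerating and 8.92 and 12.4 CPM in uninjured pools and rose by 2.02 ± 0.17. The ISWI ATPase gene smarca1 (Snf2l) went the other way, at 7.57 and 7.24 CPM in regenerating and 54.5 and 54.9 CPM in uninjured pools. It fell by 2.88 ± 0.13, or 7.39-fold (adjusted p = 2.29e-06), and its pools were close to each other within both groups. Its ISWI relative smarca5 (Snf2h) was at 129 and 120.3 CPM in regenerating and 36.5 and 49.6 CPM in uninjured pools and rose by 1.54 ± 0.17. The SWI/SNF ATPases split likewise. SMARCA4 (Brg1) was at 182 and 175 CPM in regenerating and 62.1 and 57.9 CPM in uninjured pools and rose by 1.57 ± 0.13 (adjusted p = 2.84e-05), while smarca2 (Brm) was at 66.2 and 56.3 CPM in regenerating and 131 and 128 CPM in uninjured pools and fell by 1.08 ± 0.13 (adjusted p = 2.16e-04).

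The count ratios within single libraries differed between the groups. There were 17.1 and 16.6 smarca5 counts per smarca1 count in regenerating pools, against 0.671 and 0.903 in uninjured pools. The ratio of SMARCA4 to smarca2 counts was 2.75 and 3.11 in regenerating pools against 0.473 and 0.453 in uninjured pools. These pairs were chosen after their values were seen, and with 2 pools a group no permutation of the labels could reach the threshold, so the ratios are given as a description.

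**Figure D3:**
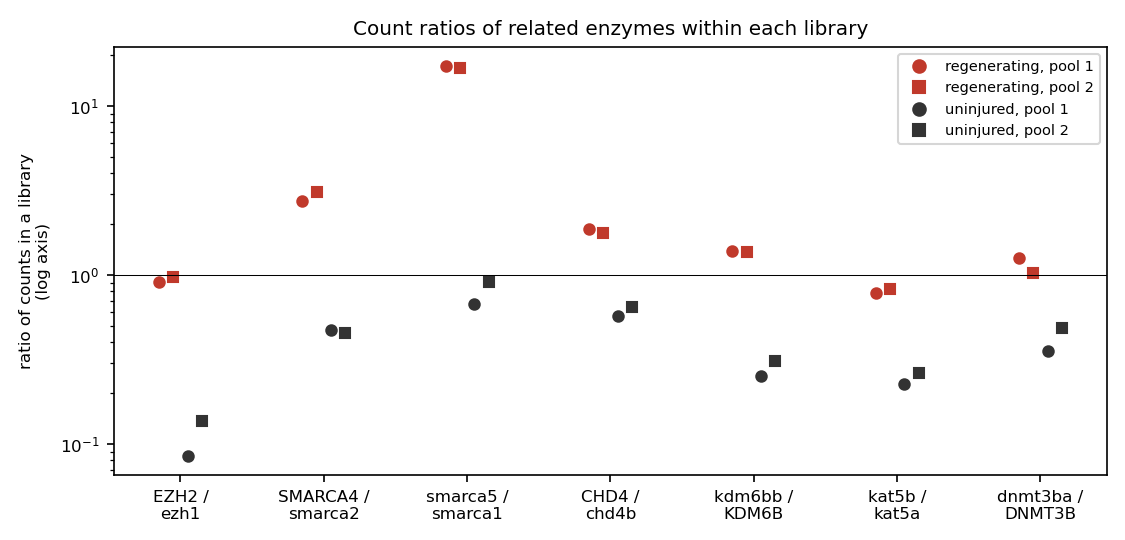
Each symbol is the ratio of the counts of 2 related genes within 1 library (y axis, log scale, with a line at 1), red for regenerating and black for uninjured pools; the pairs stand on the x axis. In all 7 pairs the red symbols lie above the black ones, most widely for smarca5 over smarca1. This direction was fixed, since the gene with the higher log2 fold change was the numerator of each pair. A ratio compares libraries and not the levels of the genes, since transcript length was not used, and the pairs were chosen with their values known.

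Of the 9 other Smarc genes, which encode non-catalytic subunits of SWI/SNF, 8 rose and 1 fell, where 29.5% and 30.1% of all genes did. SMARCE1 was at 186 and 170.3 CPM in regenerating and 63.0 and 54.9 CPM in uninjured pools (1.60 ± 0.14) and SMARCC2, a scaffold subunit, at 51.9 and 42.8 CPM in regenerating and 12.4 and 13.2 CPM in uninjured pools (1.89 ± 0.14). The second scaffold gene, SMARCC1, rose by 0.94 ± 0.13. The SMARCB1 genes, for the core subunit Snf5, rose by 1.03 ± 0.13 (ENSDARG00000011594) and 0.51 ± 0.13 (ENSDARG00000033647), the second a call that was lost without regenerating replicate 1 (adjusted p = 0.0791). The Smarcd genes encode alternative versions of a single subunit. SMARCD1 rose by 1.13 ± 0.13, and the SMARCD3 genes by 1.97 ± 0.19 (ENSDARG00000019969) and 0.86 ± 0.17 (ENSDARG00000038786). SMARCD2, at 35.9 and 32.0 CPM in regenerating and 47.7 and 41.2 CPM in uninjured pools, fell by 0.39 ± 0.13, a call that was lost without regenerating replicate 1, regenerating replicate 2 or uninjured replicate 1 (adjusted p = 0.0718, 0.211 and 0.114), with DESeq2's Wald test (adjusted p = 0.0586) and with total-count scaling (adjusted p = 0.337). Outside the name rule, of 44 tested genes of SWI/SNF, INO80, ISWI and related complexes 23 rose, 6 fell and 15 did not pass (median 0.45). The largest increases there were those of the recombination ATPase gene RAD54L (2.60 ± 0.30, and 3.28 without uninjured replicate 2) and of HELLS (2.28 ± 0.19), a remodeller needed for DNA methylation in mouse. Among the genes that fell there with a mean of at least 5 CPM, BCL11A (-0.76 ± 0.13) and YY1 (-0.74 ± 0.14) changed most. Most cycling-cell, fibroblast, osteoblast and endothelial markers also rose in these libraries, and a link to the genes above was not tested.

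Of the 9 Chd genes 3 rose, a share near the 29.5% of all genes, and 6 did not pass. CHD4, the ATPase of the NuRD complex, was at 265 and 244 CPM in regenerating and 54.3 and 60.2 CPM in uninjured pools and rose by 2.15 ± 0.14, or 4.44-fold (adjusted p = 1.08e-05). chd4b, the second gene of that name, was at 141 and 138 CPM in regenerating and 94.5 and 93.9 CPM in uninjured pools and rose by 0.57 ± 0.12. chd6 was at 22.1 and 20.1 CPM in regenerating and 9.97 and 11.1 CPM in uninjured pools and rose by 1.0 ± 0.13. CHD7, the gene of CHARGE syndrome in humans, was above the uninjured pools in both regenerating pools, at 52.1 and 51.5 CPM in regenerating and 46.4 and 40.6 CPM in uninjured pools, and its log2 fold change of 0.25 ± 0.12 did not pass (adjusted p = 0.111). It passed with total-count scaling (adjusted p = 0.0179) and without uninjured replicate 1 (adjusted p = 0.0436). CHD1L, CHD2, CHD3, CHD8 and CHD9 had values from -0.13 to 0.21 that did not pass, and those of CHD2, CHD3 and CHD8 were positive with total-count scaling. CHD9 passed with total-count scaling (adjusted p = 0.0414).

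Calls were compared within paralog sets, which were listed by hand. A set holds members that share a symbol or differ only in a zebrafish paralog suffix (a, b or a final number). Genes whose last letter is part of the enzyme's name, such as KAT6A and KAT6B or KMT5B and kmt5c, formed no set. Related genes spelled otherwise, such as KDM6A and kdm6al, which both fell, formed none either. The counts of sets therefore depend on spelling and on this choice. Members picked at random would often differ too, since 42.9% of all tested members rose, 27.6% fell and the rest did not pass. Of 16 sets with at least 2 tested genes, the genes had a single call in 7 and both a higher and a lower gene in 4. The 4 were kat5, kdm2b, kmt2c and kdm5b, with log2 fold changes 1.71, 1.57, 1.33 and 0.77 apart. Only for kdm2b and kmt2c did the opposite calls hold in every alternative that tested the genes. The calls of kat5b and of both KDM5B genes were lost in some alternatives. In 5 sets, among them kdm6b, only some genes passed. The genes of the kdm6b set lay furthest apart of all, by 2.30, and those of kmt2b nearest, by 0.06. Within sets of a single call the distance also reached 1.58 for chd4, 1.54 for smarcad1 and 1.44 for the dnmt3b group. The difference between paralogs was not tested, and reads of 50 bases from near-identical stretches of paralogs cannot be assigned with certainty.

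**Figure D4:**
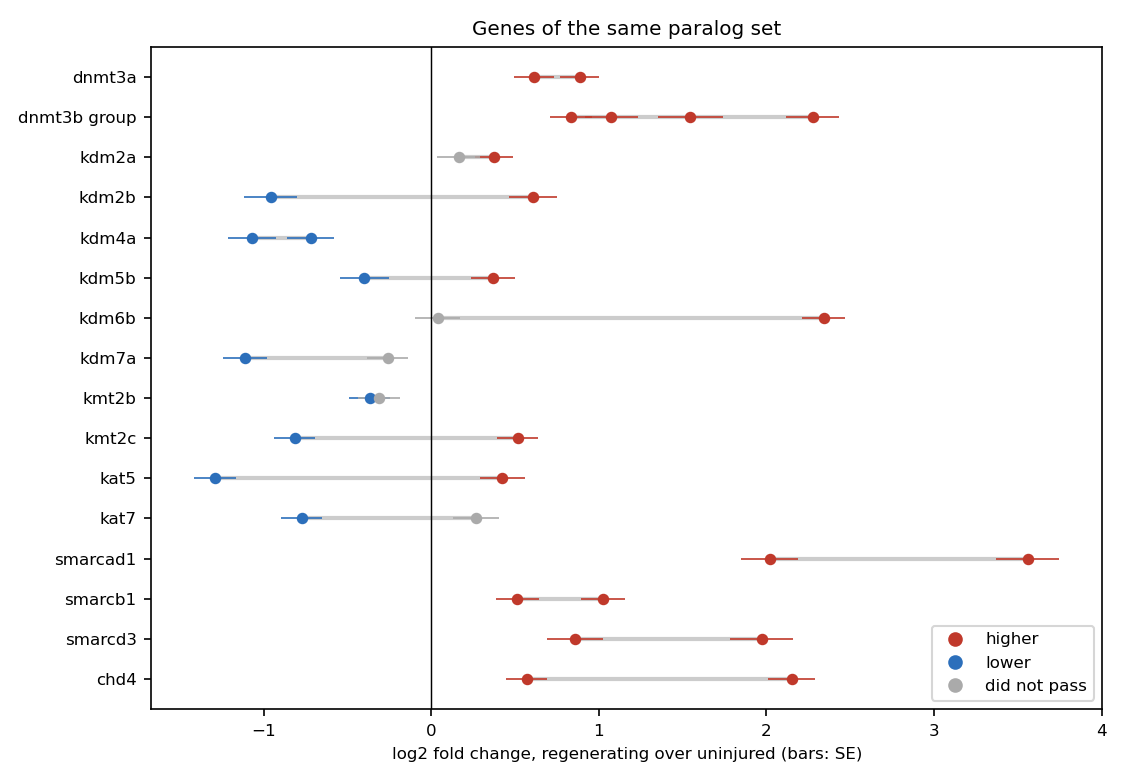
Each point is the log2 fold change (regenerating over uninjured, x axis, bars for the SE) of a gene in 1 of 16 paralog sets (y axis), joined by a grey line to the others of its set; red rose, blue fell, grey did not pass. The kat5, kdm2b, kmt2c and kdm5b sets have a red point to the right and a blue point to the left of 0.

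The partner genes differed between lists. Of 18 tested histone chaperone genes 16 rose and 0 fell at the adjusted threshold (median 0.67). The subunits of chromatin assembly factor 1, which loads histones at replication forks, rose most, chaf1a by 2.65 ± 0.14 and CHAF1B by 2.54 ± 0.18. Of 29 tested MLL partners and other histone methyltransferase genes 14 rose and 3 fell (median 0.34). Among these DPY30, a subunit of the MLL and Set1 complexes, rose by 1.5 ± 0.17, and SMYD3 fell by 0.67 ± 0.14. Of 19 DNA methylation partner and base excision genes 8 rose and 5 fell (median 0.27). APEX1, the endonuclease of base excision, rose by 2.95 ± 0.17 and cdca7b, a partner of HELLS, by 3.27 ± 0.17, while both genes of the stress-induced GADD45B fell. ENSDARG00000027744 was at 33.4 and 29.5 CPM in regenerating and 422 and 181 CPM in uninjured pools, with uninjured pools far apart, and fell by 3.26 ± 0.36, or by 2.52 without uninjured replicate 1; ENSDARG00000013576 fell by 1.1 ± 0.29. Of 9 further JmjC genes 1 rose and 2 fell (median -0.11). The lists were written from general knowledge of these complexes with earlier results of these data known, and the background of 29.5% higher and 30.1% lower holds for each of them.

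**Figure D5:**
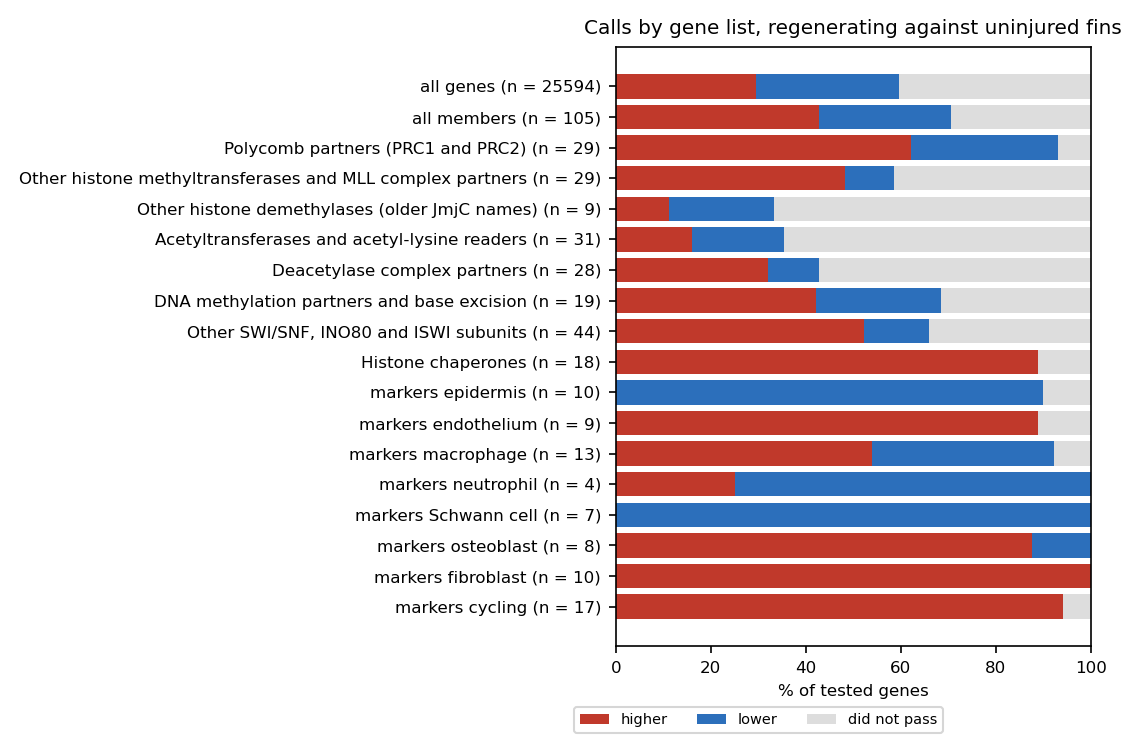
Bars show the percentage of tested genes in each list that rose (red), fell (blue) or did not pass (grey), with the number tested beside the name; all genes and all members stand at the top, the 8 lists of partner genes in the middle and the 8 lists of cell type markers at the bottom. The histone chaperone list has 16 of 18 genes in red, and the cycling-cell list 16 of 17.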

How the data were processed

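RNA was measured in 4 libraries, 2 pools of regenerating and 2 of uninjured fins. The authors deposited raw counts of reads per Ensembl gene; per the file headers these were taken on accepted hits, and CASAVA, TopHat, edgeR and the build Zv9 are named, per the submitters' processing notes. For versions, counting program and strand nothing is given in the sources used here, so reads of antisense or overlapping genes cannot be told apart, and sequences and transcript lengths were not used here. A table that pairs Ensembl IDs with symbols named 64.0% of genes.

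Genes were kept by edgeR's filterByExpr (minimum count 10, minimum total 15), scaled by TMM and compared with edgeR 4.0.16's quasi-likelihood test (R 4.3.3, glmQLFit with the non-legacy estimation) with group as the only term and Benjamini-Hochberg adjustment over 25594 genes. The SE is the log2 fold change divided by the square root of the F statistic. Alternatives were DESeq2 1.42.0's Wald test and size factors, total-count scaling, other filters, the legacy estimation, a replicate block and leaving out each library. The pools of a group are not a single library deposited again: a chi-square test of their counts over genes gave 17.6 (regenerating) and 37.1 (uninjured) per degree of freedom, where sampling alone gives about 1. This does not show that they are separate biological samples.

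On simulated counts the fit kept its nominal error rate where genes followed the dispersion trend. Where each gene had its own dispersion, p-values far below the threshold came up too often among unchanged genes. More of the calls were then false than the nominal share, while p-values near 0.05 kept their rate. Very small adjusted p-values from 2 pools a group are therefore less exact than they look. Far fewer genes changed in the simulated counts than were called in these data, so the adjusted threshold lay at smaller p-values there. The share of false calls among those reported here was not tested.

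Genes with full statistics were, per family and direction, the 2 called genes of largest change with a mean of at least 5 CPM. The gene of smallest change in families of at least 5 and a set of well-known enzymes were added. In each partner list the 2 largest changes per direction were picked by the same mean. Only some of these partner genes are printed, so the printed ones do not show the balance of directions in a list. The other members were added so that every member has a value. Partner genes matched by symbol or, without paralog suffix, by a capitalised symbol. The members and lists were chosen with earlier results of these data known.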

Additional observations from a re-analysis of the deposited data

How the results depend on the processing

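The counts of members higher and lower stayed within 1.5 times of 45 and 29 under every alternative run, ranging from 35 to 52 and from 22 to 31. Of the 74 calls, 55 (35 higher and 20 lower) held in every alternative that tested the gene, and their smallest absolute log2 fold change was 0.51; the 19 that were lost somewhere had absolute values up to 0.66. Of the 31 members that did not pass, 12 passed in at least 1 alternative, 7 of them with total-count scaling and 4 under the filter of 10 CPM in 2 libraries. These counts of calls that held, were lost or were gained cover members only. The share over all genes was not computed, so they do not set the members apart. Each fit that left out a library lost some calls, with a lone pool assumed to vary like the other group. No called member's fold change, on the unlogged scale, moved by more than 1.5 times in these fits. On the log2 scale, without uninjured replicate 1, SIRT5 went from -0.53 to -0.18 and kdm6al from -0.66 to -0.33. Leaving out 1 library at a time gave 5965 to 7438 genes higher and 5891 to 7177 lower among all genes. Under the filter of 10 CPM in 2 libraries, which tests fewer genes, 4384 were higher and 4461 lower. TMM factors were computed anew on those genes, and their log2 fold changes shifted by a median of -0.11. With total-count scaling 60.8% of called members being higher became 70.3%, and 49.5% of all called genes became 61.8%. With a replicate block the counts were 45 and 29 members and 7472 and 7624 genes; deviations of same-numbered pools did not correlate (Pearson's r = -0.03 across genes, which are not independent replicates), so the numbers were not taken as pairs. Values that changed sign belonged to genes that did not pass. Under the 10 CPM filter these were KDM6B (-0.071), hdac9b (-0.050), SIRT2 (-0.069), setd2 (-0.080) and CHD1L (-0.090), and with total-count scaling KMT5B (0.069), TET2 (0.070), CHD2 (0.080), CHD3 (0.16), CHD8 (0.15), HDAC8 (0.081), KAT6A (0.034), SETD6 (0.16), SETD9 (0.089) and SIRT4 (0.15). Leaving out single libraries, values ranged from -0.037 to 0.15 for KDM6B, -0.021 to 0.14 for SIRT2, -0.051 to 0.15 for setd2, -0.034 to 0.080 for CHD1L, -0.23 to 0.016 for TET2, -0.19 to 0.093 for CHD3, -0.13 to 0.018 for CHD8, -0.16 to 0.10 for SETD6, -0.18 to 0.055 for SIRT4, -0.029 to 0.49 for SIRT7 and -0.34 to 0.30 for the SUV39H1 gene ENSDARG00000026799, whose value was -0.0042 with a replicate block. The cause was not tested. Genes at few counts, such as HDAC11 at 22 to 70, are limited by depth.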
